A study of Homo sapiens with 16 samples.

Results

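The genes of 4 members of the C/EBP family, CEBPB, CEBPD, CEBPA and CEBPG, were examined for open chromatin in senescent fibroblasts. Members were all listed ATAC-seq peaks that overlap 3 windows of the human genome (build hg19): 300 kb for CEBPB (chr20:48700000-49000000), 150 kb for CEBPD (chr8:48600000-48750000) and 160 kb for CEBPA together with CEBPG (chr19:33740000-33900000). The windows are set by coordinates. Peaks of libraries with the same read layout were merged into regions wherever they shared at least 1 bp. This gave 66 of 153040 paired-end regions, with 44 in the CEBPB, 10 in the CEBPD and 12 in the CEBPA/CEBPG window, and 50 of 103322 single-end regions, with 31, 7 and 12. Regions are numbered in genome order within their window, separately for each layout.

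C/EBP proteins are basic leucine zipper transcription factors that bind DNA as dimers, with themselves, with each other or with related factors. CEBPB is known as a driver of oncogene-induced senescence and of its secretory programme of cytokines such as IL6. CEBPD is an acute-phase and inflammatory member, CEBPA promotes differentiation and growth arrest, and CEBPG is a short partner without an activation domain that can hold the others in heterodimers.

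ATAC-seq marks open DNA through the insertion of sequencing adapters by a transposase. All libraries came from IMR-90 ER:Ras cells, a human lung fibroblast line that carries oncogenic Ras fused to the oestrogen receptor, and all cells received an siRNA. Proliferating cells (Pro, 2 paired-end libraries) had the control siRNA siCtrl and no 4-hydroxytamoxifen (4-OHT). Their cell type label nevertheless reads senescent fibroblast, and they were taken as proliferating from their titles. Senescent cells (Sen) had siCtrl and 100 nM 4-OHT for 6 days, which switches Ras on, and were sequenced as 4 paired-end and 2 single-end libraries. With the same 4-OHT treatment, 2 paired-end libraries had siRNA against FOXF1 and FOXF2, forkhead factors of lung mesenchyme, and 2 had knockdown of JUN-family members of the AP-1 complex (titled cJUN/JUND-KD, with JUNB also in the treatment label). Of the single-end libraries, 2 had siRNA against the acetyltransferases p300 and CBP and 2 against p65, also named RELA, a subunit of NF-kB. All groups are of 1 cell line, the labels do not say that replicates were separate cultures, and peak lists do not show how efficient a knockdown was.

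Paired-end lists held 60199 to 108323 peaks, and single-end lists 17899 to 71181. Background coverage, the 1st percentile of the local background under the peaks, was 1.74 to 3.08 in the first and 0.195 to 0.475 in the second. The listing floor, the lowest summit that could enter a list at background coverage, was therefore 4.58 to 6.31 times the background in paired-end and 14.7 to 25.7 times in single-end libraries. Peak names in Pro, Sen replicates 1 and 2 and the FOXF1/2 knockdown have the same style, and those in Sen replicates 3 and 4 and the JUN-family knockdown have another. Values within each naming set are given beside the pooled ones.

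The hg19 windows were taken as given, since no hg19 annotation was used here, and no region is assigned to a promoter, exon or gene. By gene order in RefSeq for GRCh38.p14, the protein-coding neighbours of CEBPB are PEDS1, an enzyme of plasmalogen synthesis, and PTPN1, a tyrosine phosphatase of insulin signalling. CEBPD lies between SPIDR, a DNA repair scaffold, and PRKDC, the catalytic subunit of DNA-PK. CEBPA lies between SLC7A10, an amino acid transporter, and CEBPG, whose other neighbour is PEPD, a dipeptidase. Gene order gives no hg19 position, so which of these neighbours reach into the windows was not determined.

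CEBPD was left out of the promoter search, and RefSeq lists 5 promoters (GRCh38.p14, 250 bases before to 50 after a start) for CEBPA, CEBPB and CEBPG. The 3 shown here are the ones with a core promoter element or a C/EBP motif, for CEBPA on the minus strand of chromosome 19, the second listed start of CEBPB on the plus strand of chromosome 20 and the second listed start of CEBPG on the plus strand of chromosome 19. Capitals mark TATAAA in the first and CCAAT and then TATAAA in the second. In the third they mark TGATGCAA, the other strand of TTGCATCA, which was searched as a C/EBP motif and differs from the palindrome TTGCGCAA.
CEBPA: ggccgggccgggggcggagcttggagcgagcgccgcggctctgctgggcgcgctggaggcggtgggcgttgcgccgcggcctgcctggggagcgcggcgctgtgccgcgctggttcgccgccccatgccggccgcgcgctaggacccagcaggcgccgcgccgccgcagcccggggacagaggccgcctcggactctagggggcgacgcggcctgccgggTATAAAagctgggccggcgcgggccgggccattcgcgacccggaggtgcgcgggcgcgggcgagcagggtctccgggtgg
CEBPB, second start: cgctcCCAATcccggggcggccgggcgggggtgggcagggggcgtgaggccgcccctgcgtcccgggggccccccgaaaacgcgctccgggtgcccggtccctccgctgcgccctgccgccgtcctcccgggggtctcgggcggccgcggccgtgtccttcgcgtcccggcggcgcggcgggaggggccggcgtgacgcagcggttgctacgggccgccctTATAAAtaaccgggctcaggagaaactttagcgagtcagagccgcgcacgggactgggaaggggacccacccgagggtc
CEBPG, second start: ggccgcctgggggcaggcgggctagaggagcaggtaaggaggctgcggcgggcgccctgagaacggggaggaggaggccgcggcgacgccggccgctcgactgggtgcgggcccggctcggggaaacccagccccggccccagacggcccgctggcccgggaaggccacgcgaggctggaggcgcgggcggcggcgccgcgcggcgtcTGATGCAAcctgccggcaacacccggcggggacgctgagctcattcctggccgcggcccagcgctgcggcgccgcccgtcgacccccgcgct

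All 5 promoters were rich in G and C. The GC content was 80.7% for CEBPA, 77.0% and 76.7% for the CEBPB starts and 77.3% and 79.7% for the CEBPG starts, against a median of 58.7% over 35116 RefSeq promoters of the same length. They held 31 to 50 CpG dinucleotides, against a median of 14. The TATA box TATAAA, searched after the sequences had been seen, began 30 bases before the CEBPA start and 29 bases before the second CEBPB start, and stood in 11.5% of all promoters. CCAAT was present in 34.6% of all promoters. The windows of the CEBPB starts overlap and share a single CCAAT, which began 2 bases after the first start and 245 bases before the second. CCAAT was also found on the minus strand at the first CEBPG start. TTGCATCA stood in 0.866% of all promoters. On either strand of these 5 windows there was no match to the AP-1 motif TGACTCA (4.95% of all promoters), the CRE motif TGACGTCA (1.85%), the forkhead motif TGTTTAC (3.42%), the NF-kB motifs GGACTTTCC and GGAATTTCC (0.370% and 0.461%) or the C/EBP motifs TTGCGCAA and TTGCACAA (0.151% and 0.777%).

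Open chromatin at these loci was first described across all conditions. Of the 66 paired-end regions, a peak was listed in all 10 libraries at 22 (33.3%), where this held for 24.8% of all regions, and in a single library at 7 (10.6%), where it held for 16.9%. Of the 22 shared regions 17 lay in the CEBPB, 2 in the CEBPD and 3 in the CEBPA/CEBPG window. The median region length was 541.5 bp, against 482 bp over all regions. Of the 50 single-end regions 7 (14.0%) were listed in all 6 libraries, against 12.0% of all single-end regions, and 41 of the 66 paired-end regions overlapped a single-end region.

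Ranked by the lowest −log10 q over the libraries that list a region, CEBPB region 14 (chr20:48782150-48783079) came first. Its summit pileup, the reads stacked at the highest point, was 145 and 127 times the background in Pro, 88.5, 99.6, 89.0 and 86.9 times in Sen replicates 1 to 4, 109 and 105 times in the FOXF1/2 knockdown and 51.9 and 58.2 times in the JUN-family knockdown. By background coverage, Pro lay above all other libraries and the JUN-family knockdown below them. CEBPB region 33 (chr20:48920687-48922340) ranged from 46.7 in the JUN-family knockdown to 103 times the background in the FOXF1/2 knockdown, and CEBPB region 12 (chr20:48769763-48770856) from 35.4 in the JUN-family knockdown to 83.9 in Pro. Both carried a peak in all 10 libraries.

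In the CEBPA/CEBPG window, region 8 (chr19:33864123-33865485) led with 122 and 135 times the background in Pro, 72.0, 76.8, 73.9 and 79.9 in Sen, 80.0 and 92.9 in the FOXF1/2 knockdown and 48.7 and 49.7 in the JUN-family knockdown. By background coverage the 4 groups did not overlap there and stood in the order Pro, FOXF1/2 knockdown, Sen and JUN-family knockdown. The lowest FOXF1/2 knockdown value, 79.97, was next to the highest Sen value, 79.89. Scaled on the regions kept in both groups, a second scaling described with the comparisons, each of these knockdowns overlapped Sen. Region 5 (chr19:33793069-33794664) had 47.1 and 56.1 in Pro, 36.2, 48.8, 38.6 and 37.0 in Sen, 54.7 and 73.7 in the FOXF1/2 knockdown and 21.4 and 27.8 in the JUN-family knockdown. Sen overlapped Pro at region 5, and Pro overlapped the FOXF1/2 knockdown. The third by strength, region 7 (chr19:33858849-33859346), was listed in 6 libraries only, the 4 of Sen with 19.3, 18.4, 14.4 and 20.3 times the background and the 2 of the FOXF1/2 knockdown with 20.7 and 18.7.

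The CEBPD window held the fewest merged regions. Its region 6 (chr8:48686629-48687288) was at 20.7 times the background in Pro replicate 1 and unlisted in Pro replicate 2, at 49.6, 59.2, 40.6 and 47.2 in Sen, at 58.5 and 59.7 in the FOXF1/2 knockdown and at 13.6 and 24.9 in the JUN-family knockdown. By background coverage, Sen and the FOXF1/2 knockdown thus lay above Pro replicate 1 and every JUN-family knockdown library, and Pro replicate 2 had no value. Region 2 (chr8:48647684-48648081) had 47.1 and 53.6 in Pro, 41.3, 47.6, 52.7 and 47.9 in Sen, 39.8 and 52.4 in the FOXF1/2 knockdown and 20.8 and 33.3 in the JUN-family knockdown. Here Pro, Sen and the FOXF1/2 knockdown overlapped. The JUN-family knockdown lay below all of them by background coverage, but overlapped Sen when scaled on the regions kept in both groups.

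**Figure D1:**
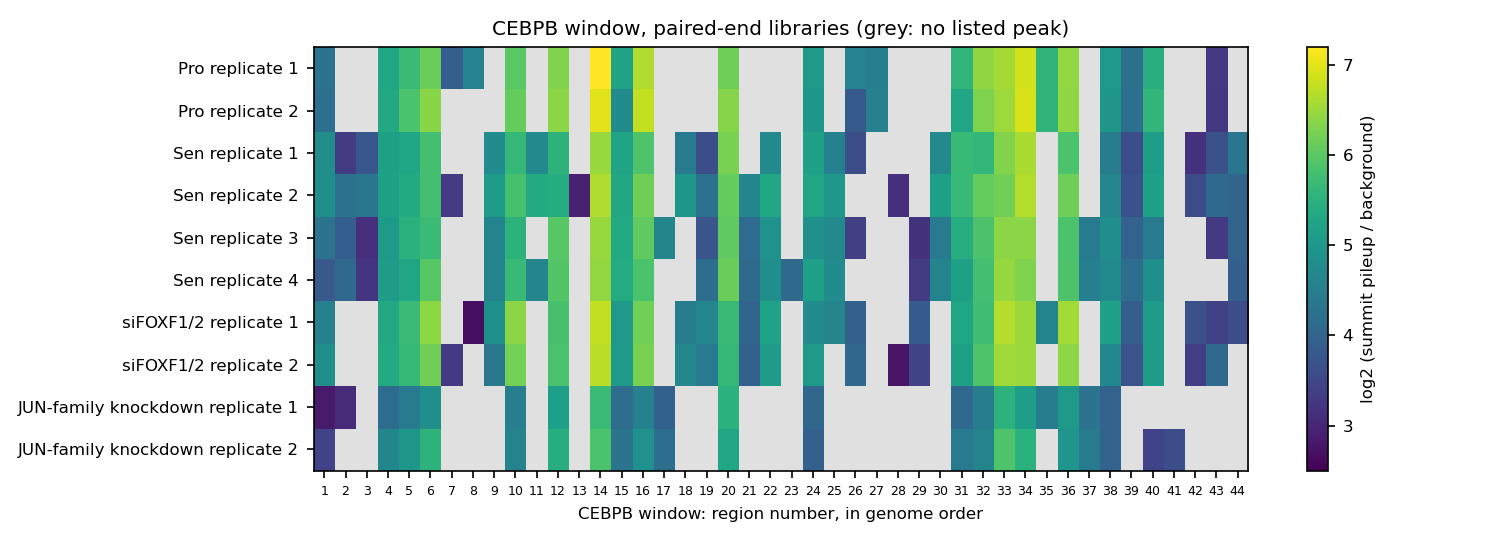
Summit pileup over background (log2 colour scale) at the 44 paired-end regions of the CEBPB window, columns in genome order and rows by library, with grey where no peak was listed. The JUN-family knockdown rows are darker and have more grey columns than Sen, and regions 27 and 35 are coloured in both Pro rows and grey in all 4 Sen rows.

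**Figure D2:**
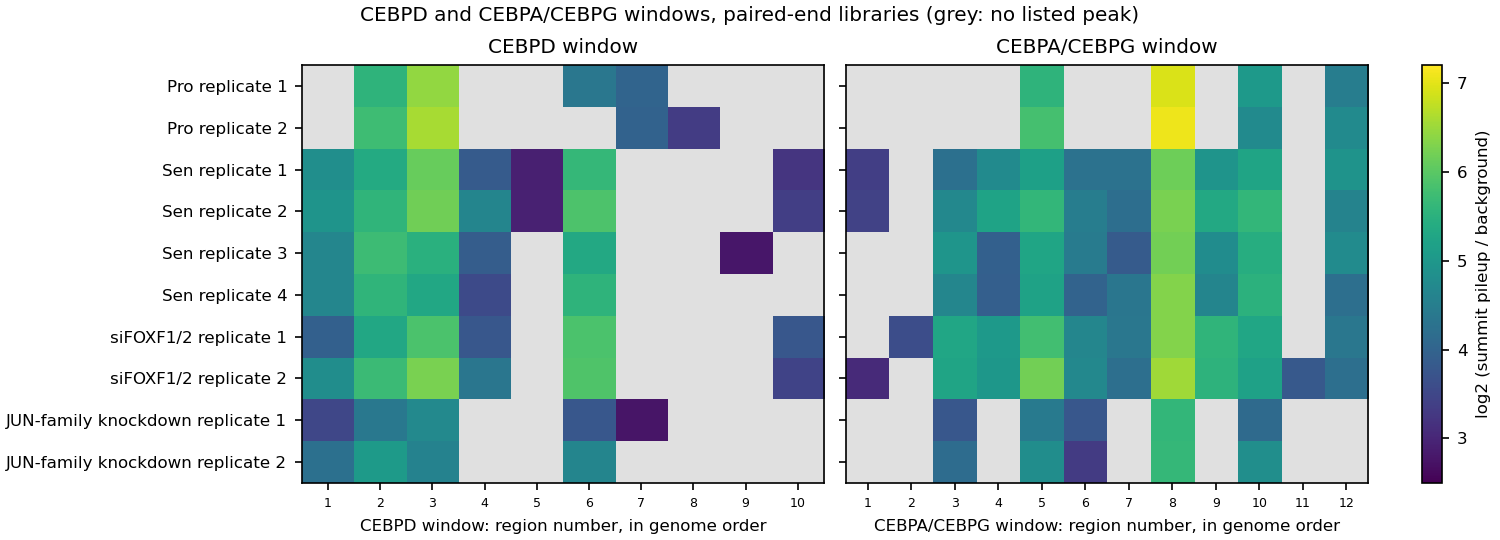
Summit pileup over background (log2 colour scale) at the 10 CEBPD and 12 CEBPA/CEBPG paired-end regions, with rows by library and grey where no peak was listed. CEBPA/CEBPG regions 3, 4, 6, 7 and 9 are grey in both Pro rows and coloured in all 4 Sen rows.

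Entry into senescence was the first comparison, Sen against Pro. More member regions were opened than closed in it at all 3 loci, as over all regions, where 19961 were opened and 2270 closed. With all lists cut to the length of the shortest, 3 member regions were opened and 3 closed. A region was called opened when all Sen and no Pro libraries listed a peak, closed when both Pro and no Sen libraries did, and kept when each of the libraries compared did. Of the 41 regions with a peak in all 4 Sen libraries 15 (36.6%) were opened, where 26.1% were over all regions. Of the 30 regions in both Pro libraries 3 (10.0%) were closed, where 3.96% were over all regions. The opened regions were 8 of 27 in the CEBPB window, 2 of 5 at CEBPD and 5 of 9 at CEBPA/CEBPG. The listing floor was 6.07 and 6.31 times the background in Pro and 4.58 to 5.20 times in Sen, and its part in the calls was not tested. These calls have no test, and a listed peak in such bulk libraries does not tell how many cells were open at a site from how open each cell was.

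At CEBPD, opened region 1 (chr8:48624047-48624961) stood at 28.2, 30.4, 25.2 and 25.3 times the background in Sen, the lowest of which was 3.99 times the listing floor of Pro. The next by strength was CEBPB region 9 (chr20:48753448-48754864), at 27.6, 33.6, 24.5 and 24.2 times in Sen, with a ratio to the floor of 3.83. This ratio sets the lowest value in libraries that list the region against the highest listing floor among those that do not. The floor holds at background coverage and a higher local background raises it, so the ratio is not a limit on the fold difference.

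In the CEBPA/CEBPG window, opened region 3 (chr19:33764592-33765532) stood at 18.9, 26.0, 30.7 and 25.3 times the background in Sen. Region 6 (chr19:33841503-33841956) stood at 19.3, 22.4, 21.9 and 16.0 times, and region 4 (chr19:33783587-33784672) at 26.9, 37.6, 15.4 and 15.2 times. The ratios to the floor of Pro were 3.00, 2.53 and 2.41, and region 7 above had 2.28. Sen replicates 3 and 4 were the low ones at region 4, while replicate 1 was lowest at region 3. CEBPB regions 25 (chr20:48864720-48865081) and 22 (chr20:48844087-48844335) completed the 8 strongest opened regions, with 27.4 ± 3.43 and 31.2 ± 5.78 times the background (SD, n = 4).

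The strongest closed region was CEBPB region 35 (chr20:48929458-48929767), at 47.6 and 47.5 times the background in Pro and unlisted in all 4 Sen libraries. Its lower value in Pro was 9.14 times the listing floor in Sen. It was listed again in FOXF1/2 knockdown replicate 1 at 24.5 times and in JUN-family knockdown replicate 1 at 22.4 times, but in neither replicate 2. Only 26 of all 153040 regions had that presence over the 10 libraries. CEBPB region 27 (chr20:48871749-48872022) was listed in no other paired-end library than Pro, where it reached 23.1 ± 0.210 times (SD, n = 2) and its ratio to the floor was 4.41. CEBPD region 7 (chr8:48733796-48734024) was at 16.1 and 15.7 times in Pro, with a ratio to the floor of 3.01, and at 6.82 times in JUN-family knockdown replicate 1.

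Summits of the regions kept in all 6 libraries were mostly lower in Sen. Of 25 such regions 16 were lower in every Sen library than in either Pro library and 2 were higher, where over all regions 41% were lower and 22.4% higher. Scaled on the median of the kept regions in place of background coverage, 15 were lower and 1 higher, where over all regions 42% were lower and 23.1% higher. By background coverage, Sen replicates 1 and 2 alone gave 16 lower and 5 higher of 25 (all regions 44.1% and 32.6%), and Sen replicates 3 and 4 alone 18 and 2 (53.9% and 25%). The median log2 ratio of Sen to Pro was -0.36, against -0.17 over all kept regions. CEBPB region 14 stood at 136 ± 13.0 times the background (SD, n = 2) for Pro and 91.0 ± 5.82 (SD, n = 4) for Sen, a ratio of 0.669. CEBPA/CEBPG region 8 had 128 ± 9.41 and 75.7 ± 3.45 times, a ratio of 0.590. The 2 higher regions, named after their values were seen, were CEBPA/CEBPG region 10 (chr19:33885120-33885806), with 29.8 ± 4.19 in Pro and 43.9 ± 4.68 in Sen, and CEBPB region 15, which overlapped once scaled on the kept regions.

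The length covered by peaks was larger in every Sen than in every Pro library in all 3 windows. It was 18.5 ± 3.14 kb against 12.8 ± 1.09 kb for CEBPB, 3.82 ± 1.02 against 2.54 ± 0.0516 kb for CEBPD and 5.91 ± 1.30 against 2.98 ± 0.122 kb for CEBPA/CEBPG (SD, n = 4 and 2). The ratios were 1.44, 1.5 and 1.98, and the ratio for all peaks of the lists was 1.64. Each two-sided exact permutation test gave p = 0.133, the smallest that 2 against 4 libraries can give, or 0.333 after Benjamini-Hochberg adjustment over the 15 tests of covered length, so none passed. Per 1000000 bases of peaks in a list, the CEBPB window held 408 and 417 bases in Pro and 351, 385, 362 and 353 in Sen, and the CEBPA/CEBPG window 98.2 and 94.2 in Pro and 124, 122, 111 and 105 in Sen. Measured against the whole list, the CEBPB window was therefore smaller and the CEBPA/CEBPG window larger in every Sen library.

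Sen replicates 1 and 2, which share the naming style of Pro, gave 21 opened regions of 48 (all regions 33.4%) and 3 closed of 30 (6.41%). Sen replicates 3 and 4 gave 18 opened of 44 (30.6%) and 3 closed of 30 (5.4%). Covered length differed from Pro by 8.12, 2.12 and 4.00 kb in the first pair and by 3.23, 0.441 and 1.86 kb in the second, in the order CEBPB, CEBPD and CEBPA/CEBPG. With all lists cut to the length of the shortest, 3 of 26 regions were opened, where 14.7% were over all regions, and 3 of 28 were closed, where 13.5% were over all regions. At a −log10 q of at least 20, 10 of 35 were opened (28.6%, all regions 27.7%), and with peaks covering 50% of a region 11 of 30 (36.7%, all regions 34.5%).

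**Figure D3:**
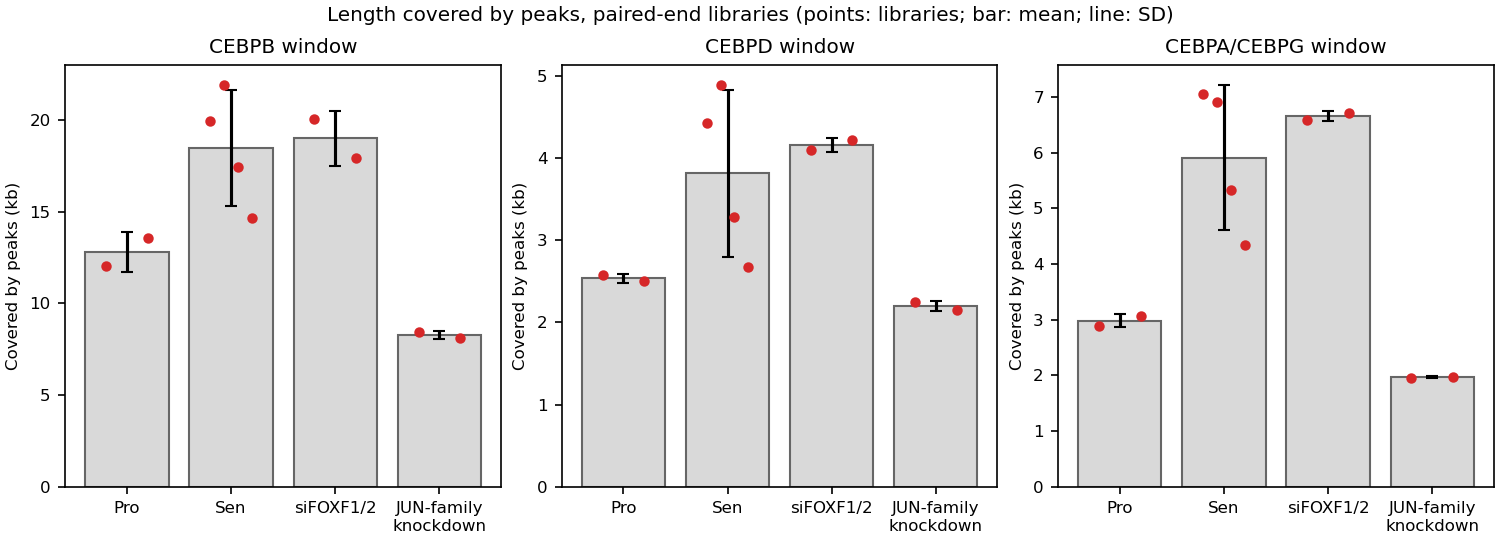
Length covered by listed peaks (kb) in each window, with a point for each paired-end library, bars for group means and lines for SD (n = 4 for Sen, n = 2 for the other groups). All Sen points lie above the Pro and JUN-family knockdown points, and the FOXF1/2 knockdown points lie within the range of Sen.

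The FOXF1/2 knockdown, the subject of the series, was compared with Sen next. Most member regions were still listed in both knockdown libraries. Of the 41 regions in all Sen libraries 3 (7.32%) were closed, where 8.1% were over all regions, and 36 kept a peak in all 6 libraries. Of the 43 regions in both knockdown libraries 0 were opened, where 9.7% were over all regions. The 3 closed regions lay in the CEBPB window, and the CEBPD and CEBPA/CEBPG windows had none.

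CEBPB region 30 (chr20:48900481-48901092) was the strongest of them, at 26.2, 36.0, 21.3 and 24.6 times the background in Sen, the lowest of which was 3.72 times the listing floor of the knockdown libraries. CEBPB region 2 (chr20:48709068-48709446), at 9.99, 19.2, 15.0 and 17.1 times in Sen, and region 3 (chr20:48712169-48712502), at 13.8, 20.4, 8.83 and 9.35 times, had ratios to the floor of 1.75 and 1.55 only. All 3 were unlisted in Pro, so they were also among the regions opened in senescence. Presence in Sen alone, as at regions 3 and 30, was shared by 3968 of the 153040 regions.

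At the 36 kept regions, the direction of summit differences depended on the scaling. By background coverage, 2 were lower and 14 higher in both knockdown libraries than in all Sen libraries, where over all regions 8.77% were lower and 46.1% higher. Against Sen replicates 1 and 2 alone 8 were lower and 17 higher (all regions 15.9% and 50.7%), and against replicates 3 and 4 alone 5 and 21 (12.4% and 65.7%). Scaled on the kept regions, 9 were lower and 4 higher, where over all regions 21.5% were lower and 21.2% higher. The median log2 ratio was 0.19 under the first and -0.07 under the second scaling, against 0.27 and -0.01 over all kept regions. CEBPB region 20 (chr20:48841084-48841802) was lower under both scalings, at 70.4 ± 4.09 times the background (SD, n = 4) for Sen and 50.2 ± 0.472 (SD, n = 2) for the knockdown, and CEBPB region 10 (chr20:48760697-48761288) was higher under both, with 51.2 ± 4.46 and 78.8 ± 6.49 times. These 2 regions were named after their values were seen.

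Covered length overlapped between the groups in every window. It was 19.0 ± 1.49 kb for CEBPB, 4.16 ± 0.0820 kb for CEBPD and 6.66 ± 0.0891 kb for CEBPA/CEBPG (SD, n = 2), at ratios to Sen of 1.03, 1.09 and 1.13 where all peaks gave 1.12. The two-sided exact permutation test gave p = 0.8 in each (adjusted 0.857). Per 1000000 bases of peaks in a list, the CEBPB window held 336 and 330 bases in the knockdown, below the 351 to 385 of the Sen libraries. It was also lower in the other knockdowns than in the Sen libraries of their layout. The CEBPD window held 68.6 and 77.5 and the CEBPA/CEBPG window 110 and 124, and both overlapped Sen. Against Sen replicates 1 and 2 of the same naming set the sign turned, to -1.93, -0.496 and -0.324 kb, and against replicates 3 and 4 it was 2.96, 1.18 and 1.81 kb. Closed regions were 5 of 48 against the first pair (all regions 11.1%) and 4 of 44 against the second (12.6%), with 1 and 3 of 43 opened (12.3% and 16%). Leaving out knockdown replicate 1 gave 5 closed regions of 41 (all regions 10.2%) and 1 opened of 47 (11.8%), and leaving out replicate 2 gave 3 opened of 48 (16.9%). Lists of equal length gave 0 closed of 26 (9.7%), and a −log10 q of at least 20 gave 0 of 35 (8.83%).

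The JUN-family knockdown was compared with the same Sen libraries. It listed 21 and 22 peaks at CEBPB against 33 to 38 in Sen, and 5 and 5 at CEBPA/CEBPG against 9 to 10. At CEBPD it listed 5 and 4 peaks against 7, 7, 6 and 5 in Sen, so the libraries overlapped there. The whole lists held 62787 and 60199 peaks, against 98740 to 102990 in Sen. With all listed peaks, the closed share of the members was close to that of all regions. Of the 41 regions in all Sen libraries 13 (31.7%) were closed, where 31.6% were over all regions. Of the 28 regions in both knockdown libraries 0 were opened, where 5.91% were over all regions. The closed regions were 8 of 27 at CEBPB, 1 of 5 at CEBPD and 4 of 9 at CEBPA/CEBPG.

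The strongest closed region was CEBPB region 9, given above in Sen among the opened regions, with a ratio to the floor of 4.05, or 2.53 when scaled on the kept regions. It was at 29.1 and 20.8 times the background in the FOXF1/2 knockdown and unlisted in Pro. CEBPB region 22 was at 26.5, 39.6, 29.8 and 28.8 times in Sen and 36.7 and 34.3 in the FOXF1/2 knockdown, with a ratio to the floor of 4.44 (2.58 when scaled on the kept regions). CEBPA/CEBPG region 9 (chr19:33867362-33867634) was at 30.7, 40.4, 27.5 and 24.9 times in Sen and 47.4 and 46.2 in the FOXF1/2 knockdown, with a ratio to the floor of 4.18 (2.61). All 3 were unlisted in Pro and in the JUN-family knockdown and listed in all other paired-end libraries. That presence was shared by CEBPB region 19 (chr20:48831677-48832030), CEBPD region 4 and CEBPA/CEBPG regions 4 and 7, and by 8568 regions in all (5.60%).

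CEBPB region 25 was listed in Sen and in FOXF1/2 knockdown replicate 1, at 24.9 times the background, and in no other paired-end library. CEBPA/CEBPG region 12 (chr19:33897515-33898180) was the strongest closed region that Pro also listed. It was at 22.4 and 26.8 times in Pro, 30.3, 24.4, 27.1 and 18.7 in Sen and 20.7 and 18.7 in the FOXF1/2 knockdown, with a ratio to the floor of 3.13 (1.96). Scaled on the kept regions, the lowest Sen value at CEBPB region 3, also closed, was 0.926 times the floor and so below it, and the ratios at CEBPB regions 39 and 19 and CEBPD region 4 were 1.19, 1.2 and 1.23. Some regions opened in senescence stayed listed in both replicates of the JUN-family knockdown. These were CEBPD region 1 at 11.4 and 18.9 times the background, CEBPA/CEBPG region 3 at 13.6 and 17.9 times and CEBPA/CEBPG region 6 at 13.6 and 9.95 times, all below every Sen value by background coverage. Scaled on the kept regions, all 3 overlapped Sen.

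At the 26 kept regions, 25 were lower and 0 higher in the knockdown by background coverage, where over all regions 83.8% were lower and 2.05% higher. Against Sen replicates 1 and 2 alone the counts were 25 and 0 (all regions 87.3% and 3.68%), and against replicates 3 and 4 alone 26 and 0 (88.6% and 2.85%). Scaled on the kept regions, 7 were lower and 4 higher, where over all regions 20.2% were lower and 31.5% higher. The median log2 ratio was -0.83 under the first and 0.02 under the second scaling, against -0.79 and 0.08 over all kept regions. CEBPB region 14 had 55.1 ± 4.41 times the background (SD, n = 2), a ratio to Sen of 0.605 by background coverage and 1.11 when scaled on the kept regions, where it was higher in both knockdown libraries. CEBPB region 33 turned in the same way, from 0.659 to 1.19. CEBPD region 6 was lower under both scalings, with ratios of 0.392 and 0.706.

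Covered length was smaller in both knockdown libraries than in all Sen libraries in each window, with 8.28 ± 0.231 kb for CEBPB, 2.20 ± 0.0643 kb for CEBPD and 1.97 ± 0.0156 kb for CEBPA/CEBPG (SD, n = 2). The ratios to Sen were 0.448, 0.577 and 0.333, and the ratio over all peaks was 0.494. Each two-sided exact permutation test gave p = 0.133, the smallest possible (adjusted 0.333). Per 1000000 bases of peaks in a list, the CEBPB window held 322 and 338 bases in the knockdown and the CEBPA/CEBPG window 74.6 and 82.5. Both windows were below every Sen library. The CEBPD window held 85.6 and 89.8 against 64.5 to 86.0 in Sen. Against Sen replicates 3 and 4 of the same naming set the differences were -7.76, -0.778 and -2.87 kb, with 15 of 44 regions closed (all regions 34.8%) and 0 of 28 opened (6.39%). With peaks covering 50% of a region, 17 of 30 were closed (56.7%, all regions 46.6%). At a −log10 q of at least 20, 11 of 35 were closed (31.4%, all regions 39.8%). With lists of equal length, 1 of 26 regions was closed, where 15.2% were over all regions, and 2 of 27 were opened (all regions 15%), and leaving out knockdown replicate 2 opened 2 of 31 (9.38%).

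**Figure D4:**
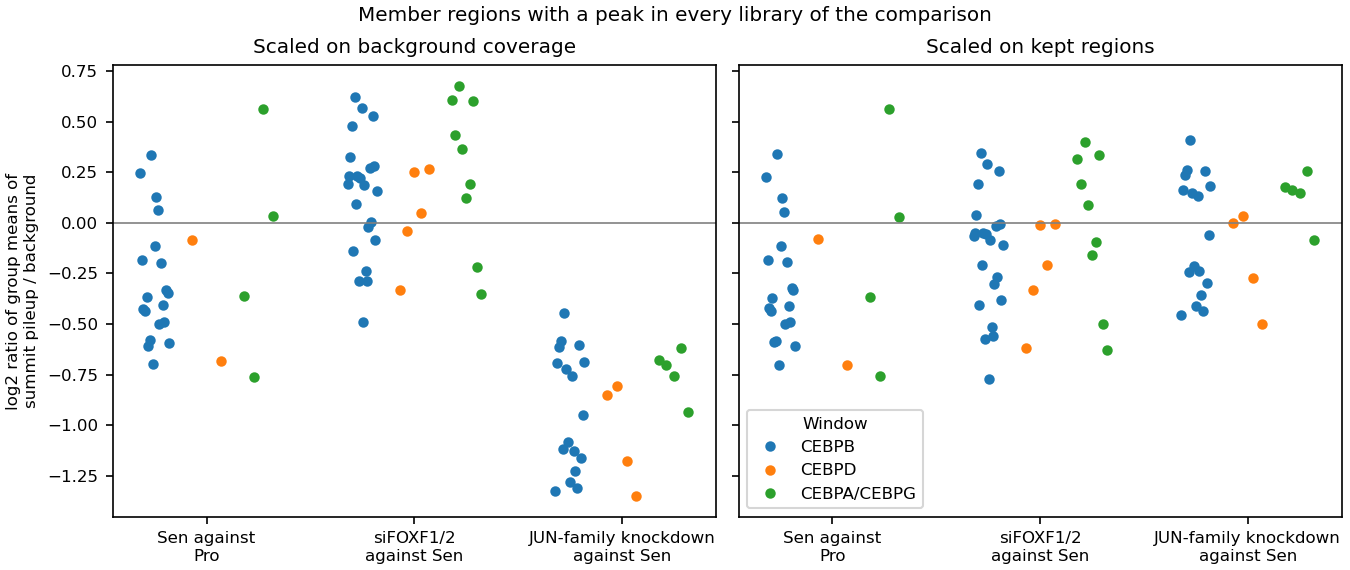
Log2 ratio of group means of summit pileup over background at regions listed in every library of the comparison, with a point for each region coloured by window. Scaled on background coverage (left), all 26 JUN-family knockdown points lie below 0, with a median of -0.83, and scaled on the kept regions (right) they spread around 0, with a median of 0.02.

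In the single-end libraries the listing floor was high, so that only strong summits could be seen. Of the 41 regions in all paired-end Sen libraries, 24 overlapped a region in both single-end Sen libraries. Knockdown of p300/CBP closed 7 of the 25 member regions in both Sen libraries (28.0%), where 17.4% were over all regions, and of the 16 regions in both knockdown libraries 0 were opened, where 13.1% were over all regions. The closed regions were 5 of 17 at CEBPB, 1 of 3 at CEBPD and 1 of 5 at CEBPA/CEBPG.

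CEBPB single-end region 23 (chr20:48909163-48909406) was the strongest, at 78.1 and 42.1 times the background in Sen. CEBPB single-end region 16 (chr20:48841197-48841588), at 69.4 and 50.5 times in Sen, had the highest ratio to the floor, 2.47. CEBPD single-end region 1 (chr8:48624344-48624615), inside the paired-end region 1 opened in senescence, was at 43.4 and 35.8 times in Sen and 41.4 and 46.2 in the p65 knockdown and unlisted in both p300/CBP knockdown libraries, with a ratio to the floor of 1.75. The other 4 were CEBPB single-end regions 1, 13 and 17 and CEBPA/CEBPG single-end region 11, and the ratios of all 7 ran from 1.44 to 2.47. At CEBPD, p300/CBP knockdown replicate 1 listed 5 peaks and replicate 2 listed 0, and the lists of these libraries held 71181 and 46580 peaks.

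Knockdown of p65 also closed 7 of the 25 regions (28.0%), where 29.6% were over all regions, and opened 0 of the 9 regions in both knockdown libraries, where 1.53% were over all regions. The closed regions were 6 of 17 at CEBPB, 0 of 3 at CEBPD and 1 of 5 at CEBPA/CEBPG. CEBPA/CEBPG single-end region 9 (chr19:33859005-33859303) was the strongest, at 52.0 and 31.6 times the background in Sen and 37.9 and 40.9 in the p300/CBP knockdown. CEBPB single-end region 15 (chr20:48838111-48838321) was at 86.7 and 37.9 times in Sen and 68.1 and 51.1 in the p300/CBP knockdown, with a ratio to the floor of 1.48. CEBPB single-end region 13 (chr20:48807319-48807553), at 73.7 and 35.8 times in Sen, was unlisted in all 4 knockdown libraries, with ratios to the floor of 1.75 for p300/CBP and 1.39 for p65. The same Sen libraries serve both comparisons. CEBPB single-end regions 1, 7, 17 and 21 were the other closed regions, and the ratios of all 7 ran from 1.15 to 1.48.

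CEBPB single-end region 10, which lies in paired-end region 14, was listed in all 6 libraries, at 108 and 80.0 times the background in Sen, 125 and 71.5 in the p300/CBP knockdown and 86.1 and 82.1 in the p65 knockdown, and the groups overlapped. Over the 16 regions kept with the p300/CBP knockdown the median log2 ratio to Sen was 0.21, against 0.13 over all kept regions, and 0.03 when scaled on the kept regions. Over the 9 kept with the p65 knockdown it was -0.05, against -0.04 over all.

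Covered length with the p300/CBP knockdown was 3.03 ± 0.831 kb against 3.73 ± 0.731 kb in Sen for CEBPB, 0.270 ± 0.382 against 0.639 ± 0.202 kb for CEBPD and 1.04 ± 0.423 against 1.11 ± 0.288 kb for CEBPA/CEBPG (SD, n = 2 each). The groups overlapped in all 3 windows, and two-sided exact permutation tests gave p = 0.667, 0.667 and 1 (adjusted 0.857, 0.857 and 1). With the p65 knockdown it was 1.72 ± 1.18 kb for CEBPB, 0.513 ± 0.205 kb for CEBPD and 0.384 ± 0.202 kb for CEBPA/CEBPG (SD, n = 2). CEBPB and CEBPA/CEBPG did not overlap with Sen and reached p = 0.333 in the exact permutation test, the smallest that 2 against 2 libraries can give (adjusted 0.625), and CEBPD overlapped (p = 0.667). The ratios to Sen were 0.462, 0.803 and 0.347, and the ratio over all peaks was 0.5, with 17899 peaks in p65 knockdown replicate 2 and 44037 in replicate 1. The listing floor was 25.7 times the background in that replicate 2, 19.1 in replicate 1 and 21.7 and 14.7 in Sen, and its part in these values was not tested. Leaving out p65 knockdown replicate 1 gave 16 closed regions of 25, where 65.4% were over all regions, and leaving out Sen single-end replicate 1 gave 12 of 32 for either knockdown, where 28.8% were over all regions for p300/CBP and 42.8% for p65. Leaving out p300/CBP knockdown replicate 2 gave 13 opened regions of 35, where 30.3% were over all regions. Lists of equal length left 2 regions in both Sen libraries. Of these, 1 was closed with the p300/CBP knockdown (all regions 19.1%) and 0 with the p65 knockdown (16.6%).

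**Figure D5:**
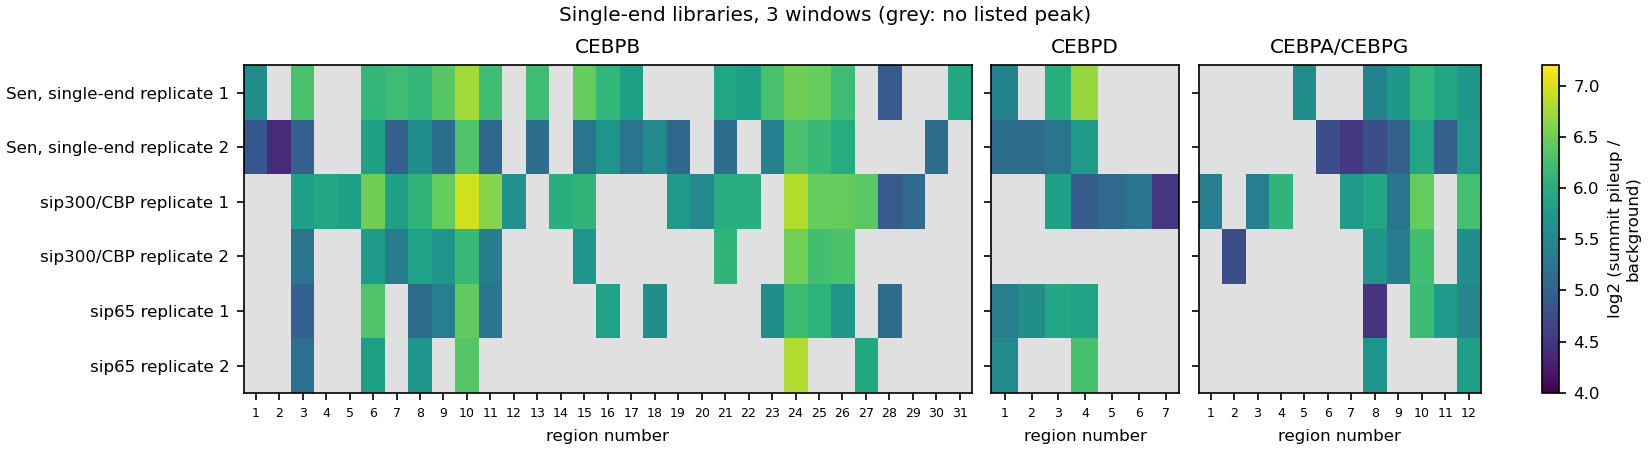
Summit pileup over background (log2 colour scale) at the 31 CEBPB, 7 CEBPD and 12 CEBPA/CEBPG single-end regions, with rows by library and grey where no peak was listed. Replicate 2 of the p65 knockdown has the fewest coloured cells, and replicate 2 of the p300/CBP knockdown has none in the CEBPD window.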

How the data were processed

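The deposited lists are narrowPeak files of 10 columns, 1 per library, so the authors called peaks in each library and not on pooled replicates. Per the submitters' processing notes, the tools were MACS2 2.1.1, deepTools 3.1.1, SAMtools 1.9 and Bowtie2 2.3.4.1, and the build was hg19. How reads were shifted, how duplicates were treated (beyond a removal tag in the single-end peak names) and how the caller was set is not given in the sources used here. Per the labels' protocols, single reads had 75 bp and paired reads 35 bp. For each peak the authors deposited a fold ratio, summit over local background, and the −log10 of the p-value and q-value. No listed −log10 q was below 4.

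Peaks on chromosomes 1 to 22 and X were merged into regions within a layout. Whole summit pileups and local backgrounds were recovered from the deposited fold, (pileup + 1) / (background + 1), and the Poisson p-value, which succeeded for 100% of the peaks of each list, with a tolerance of 0.002 in −log10 p (proportionally wider above 10). Pileup over background, with its 1st percentile as the background, is a description and no count test was run on it. A different depth between libraries moves the listing floor, and its part in the calls was not tested. The recovery was tested on simulated data. Covered length was compared by two-sided exact permutation tests over libraries, with Benjamini-Hochberg adjustment over 15 tests. Python 3.11.15, numpy 2.4.6, scipy 1.17.1, pandas 2.3.3 and matplotlib 3.10.9 were used.

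Members and lists were chosen with earlier results of these data known. Named regions are the 3 strongest of each window by their lowest −log10 q among libraries listing them and the first 8 closed or opened in each comparison. Alternatives were a −log10 q of at least 5 or 20, a 50% minimum of a region covered by peaks, summit windows of 500 bp, lists of equal length, omission of each library, subsets of the Sen libraries, the replicate block and another scaling. The Sen subsets for covered length and for kept regions were added after seeing the data. A list of C/EBP partners and targets was not run, since it needs an hg19 annotation. Motifs were searched on both strands of the RefSeq promoters.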

Additional observations from a re-analysis of the deposited data

Results flagged for a closer look

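Among the 4 paired-end Sen libraries, 47 sets of values were searched for a library far from the others, by the gap to its nearest neighbour over the whole range, set against the critical value of Dixon for 4 values. Chance alone passes about 1 in 20 such sets if their values are continuous, which counts of peaks are not, and 3 passed. At CEBPB region 14 the quotient was 0.838, with Sen replicate 2 at 99.6 times the background and the others at 86.9 to 89.0 times. At CEBPB region 36 it was 0.951, with Sen replicate 2 at 71.2 times and the others at 58.2 to 58.8 times. Both regions were lower in all 4 Sen libraries than in both Pro libraries. The number of peaks in the CEBPA/CEBPG window gave 1, with 9 peaks in Sen replicate 3 and 10 in each of the others. Where the others are equal, the quotient is 1 for a difference of any size, so this flag marks no unusual library.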

How the results depend on the processing

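All groups are of 2 or 4 libraries, so no exact permutation test could reach p = 0.05. With lists of equal length, 3 of 26 regions were opened in Sen against Pro (14.7% over all regions). The FOXF1/2 knockdown closed 0 of 26 (9.7%), and the JUN-family knockdown closed 1 of 26 (15.2%) and opened 2 of 27 (15%). The p300/CBP knockdown closed 1 of 2 (19.1%) and opened 1 of 5 (18.2%), and the p65 knockdown closed 0 of 2 (16.6%). At a −log10 q of at least 20, the FOXF1/2 knockdown closed 0 of 35 regions (8.83% over all regions). The p300/CBP knockdown closed 1 of 2 (25.1%) and the p65 knockdown 1 of 2 (62.7%). A −log10 q of at least 5, peaks covering 50% of a region and 500 bp summit windows kept all counts of closed and opened regions within 1.5 times. Closed shares moved with peaks covering 50% of a region. The JUN-family knockdown then closed 17 of 30 (56.7%, all regions 46.6%) and the p300/CBP knockdown 8 of 20 (40.0%, all regions 23.2%). The FOXF1/2 knockdown closed 3 of 30 (10.0%, all regions 10.3%) and the p65 knockdown 7 of 20 (35.0%, all regions 37.0%).

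Over the fits without a library, closed regions ran from 3 to 4 in Sen against Pro, 3 to 5 for FOXF1/2, 13 to 14 for the JUN family, 7 to 12 for p300/CBP and 7 to 16 for p65, and opened regions from 15 to 16, 0 to 3, 0 to 2, 0 to 13 and 0 to 1. These closed counts were of 30 to 33, 41 to 42, 41 to 42, 25 to 32 and 25 to 32 regions. The opened counts were of 41 to 42, 43 to 48, 28 to 31, 16 to 35 and 9 to 21. Over all regions, the closed share ran from 4.24% to 5.85%, 8.84% to 12.4%, 32.5% to 37.3%, 20.5% to 32.3% and 31.2% to 65.4%. The opened share over all regions ran from 27.4% to 31.2%, 10.3% to 16.9%, 6.04% to 9.38%, 17.0% to 30.3% and 2.26% to 11.3%. Against Sen replicates 1 and 2, FOXF1/2 closed 5 of 48 (11.1% over all regions) and opened 1 of 43 (12.3%) and the JUN family closed 20 of 48 (40.1%) and opened 2 of 28 (9.76%), and against Sen replicates 3 and 4 FOXF1/2 opened 3 of 43 (16%). Scaled on the kept regions, 1 of 25 kept regions was higher in Sen against Pro (23.1% over all regions). For FOXF1/2, 9 of 36 were lower and 4 higher (21.5% and 21.2%). For the JUN family, 7 of 26 were lower and 4 higher (20.2% and 31.5%). With Sen replicates 1 and 2 only, 5 were higher in Sen against Pro (32.6% over all regions) and 8 lower for FOXF1/2 (15.9%), and with Sen replicates 3 and 4 only 5 were lower for FOXF1/2 (12.4%).

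Without a library, the FOXF1/2 difference in covered length ran from -0.76 to 1.65 kb at CEBPB, from -0.0387 to 0.698 kb at CEBPD and from 0.224 to 1.13 kb at CEBPA/CEBPG. Sen replicate 4 turned both of the first, and FOXF1/2 replicate 1 turned CEBPB to -0.54 kb. For p300/CBP it ran from -0.37 to 0.229 kb at CEBPA/CEBPG, positive without Sen single-end replicate 2 (0.133 kb) or p300/CBP replicate 2. For p65 it ran from -0.271 to 0.019 kb at CEBPD, positive without Sen single-end replicate 2 (0.017 kb) or p65 replicate 2. With lists of equal length the p300/CBP difference was 0.167 kb at CEBPB and 0.297 kb at CEBPA/CEBPG, and the p65 difference 0.0655 kb at CEBPD. The cause of these changes was not tested.

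Under the replicate block, which pairs equal replicate numbers, the differences in covered length at CEBPB, CEBPD and CEBPA/CEBPG were 8.12, 2.12 and 4.00 kb in Sen against Pro, -1.93, -0.496 and -0.324 kb for FOXF1/2 and -12.7, -2.45 and -5.01 kb for the JUN family. The exact p was 0.5 or 1, 0.5 being the smallest for 2 pairs. For the single-end comparisons the block left the differences as they were. The FOXF1/2 signs also turned against Sen replicates 1 and 2 alone, since these are the same libraries. The labels name no shared source for equal numbers and there are 2 pairs, so equal numbers were not taken as pairs. The deviations of equal-numbered replicates correlated at 0.0714, 0.123, 0.0091, -0.0017 and 0.0095 over regions in the 5 comparisons.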
